A study of Mus musculus with 8 samples.

Results

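The 46 nuclear genes described here encode the subunits of respiratory complexes II, III, IV and V and their carrier cytochrome c. They comprise 4 subunits of complex II, 9 of complex III, cytochrome c itself, 15 genes of complex IV and 17 of ATP synthase, counting its inhibitory factor. The list was given by gene symbol, and 71 of the 55681 probes of the array were assigned to it through their RefSeq accessions. Of these, 70 probes were measured well enough to be tested (23098 probes of the whole array), and all 46 genes kept at least 1 probe. RNA was isolated from white gastrocnemius, the fast portion of a calf muscle, of 4 wild type mice and 4 mice homozygous for a mutation of Pus1, all 14 to 16 weeks old, untreated, and on a C57BL/6J background after 5 generations of backcrossing. Each of the 4 arrays, all of 2 colours, paired a mutant with a same-sex wild type, which gave 4 pairs, males in pairs 1 and 2 and females in pairs 3 and 4. The mutant was labelled with Cy5 in pairs 1 and 3 and with Cy3 in pairs 2 and 4. The labels do not describe the mutation or say whether all cells carry it.

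Complex II (succinate dehydrogenase) passes electrons from succinate to ubiquinone, complex III passes them on to cytochrome c, and complex IV (cytochrome c oxidase) hands them to oxygen. Complexes III and IV pump protons across the inner mitochondrial membrane, and complex V (ATP synthase) uses their return to make ATP. Complexes III, IV and V also contain subunits encoded by mitochondrial DNA, whose translation needs mitochondrial tRNAs, while complex II is built of nuclear products alone. Pus1 encodes pseudouridine synthase 1, which modifies uridines of cytosolic and mitochondrial tRNAs, and loss of its human counterpart causes a myopathy with sideroblastic anaemia. White gastrocnemius is made largely of fast glycolytic fibres, which hold fewer mitochondria than slow or fast oxidative fibres.

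The Pus1 probe exceeded background clearly in 4 of 4 wild types but in 0 of 4 mutants, where it was at least 2.76-fold lower (limma adjusted p = 0.0786). Its fitted log2 ratio followed the handling of background, at −1.46 here, −1.99 with an offset of 10 and −3.24 with the scanner's processed signals. The share of spots well above background ranged from 38.0% to 46.5% per channel. Across the array limma called 0 of 23098 probes (0%) at an adjusted p of 0.05, while 3.35% of probes had an unadjusted p under 0.05, 1.86% lower and 1.49% higher in mutants. All values below are log2 intensities of 1 probe per gene, the brightest one, after normalization within and between arrays, or log2 ratios of mutant over wild type on the same array. Series of 4 intensities are given in the order of the pairs, and ratios of single pairs hold no dye correction unless stated. An intensity serves to compare animals for 1 probe and not to compare genes. The 70 tested probes of the list were well above background in all 8 animals, and 0 were saturated. The remaining probe, of Cycs, was well above background in none of them.

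As a group the 46 genes lay slightly lower in mutants. In the fitted means 41 of 46 were below 0, with a median log2 ratio of −0.10 and a range from −0.30 to 0.05, against 49.6% of all tested probes below 0 and a median of 0.00. None of the 46 passed the adjusted threshold (smallest unadjusted limma p 0.0145, adjusted p 1.00). An unadjusted p under 0.05 was found for 2 of 46 (4.35%), both lower, against 3.35% of all probes in either direction and 1.86% lower. In 9 of 46 genes (19.6%) all 4 pairs were lower, against 5.1% of all probes, and no member was higher in all 4 pairs, against 4.83%. A further 23 were lower in 3 pairs, 12 in 2 and 2 in 1. With median centring in place of loess all 46 lay below 0 (median −0.19), the 5 genes above 0 here included, as did 70.3% of all probes. RNA of whole muscle was measured, so that fewer fibres of a kind and less RNA per fibre cannot be told apart.

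The pairs did not contribute alike. The median of the 46 log2 ratios was 0.15, −0.11, −0.26 and −0.17 in pairs 1 to 4, and 13, 37, 38 and 43 genes lay below 0. Pair 1 thus went the other way for most members. Each pair was left out in turn. The dye term was kept in these fits, so that the remaining pair of the same dye orientation gained weight. Without pair 3, pair 1 counted as much as pairs 2 and 4 together, and without pair 1, pair 3 did. The changes thus reflect the added weight of 1 pair as well as the loss of another. Leaving out pair 3 brought the count of genes below 0 from 41 to 25 and the median to −0.01, while leaving out pair 1 brought them to 46 and −0.20. Gene by gene, the fitted ratio of 36 of 46 moved by over 1.5 times in at least 1 of these leave-outs, and 21 changed sign. The 10 that moved less were Sdha, Uqcrc1, Uqcrc2, Uqcrq, Cox7a2l, Atp5a1, Atp5b, Atp5g1, Atp5g3 and Atp5h. On the probe scale, with each probe centred on its mean over the 8 animals, the median of the 46 genes was 0.05, 0.11, 0.08 and −0.01 among the wild types and 0.18, −0.01, −0.17 and −0.22 among the mutants. Mutant 1 was the highest mutant in 39 of 46 genes, and mutant 4 the lowest in 26. The spread between animals was larger among mutants than among wild types in 35 of 46 genes, with a median SD of 0.22 against 0.12. That direction was common on the array (66.0% of all probes), where the median SD was 0.22 in mutants and 0.17 in wild types.

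**Figure D1:**
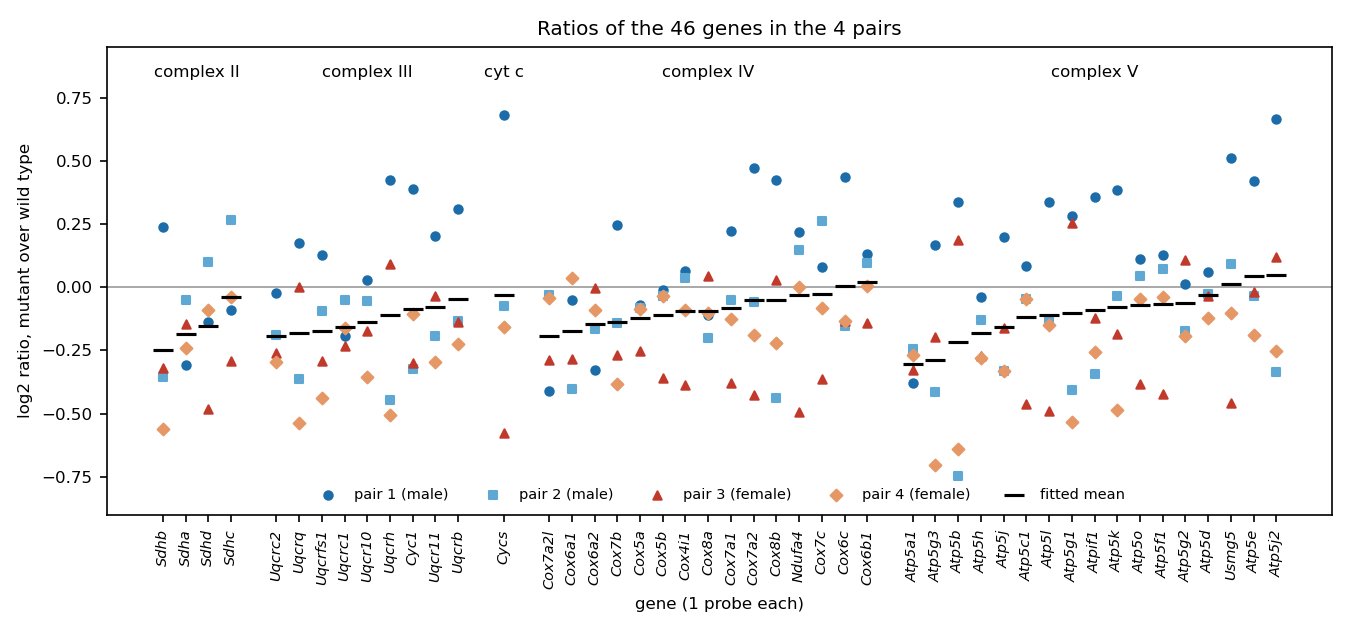
Log2 ratio of mutant over wild type (vertical axis) for the 46 genes (horizontal axis, 1 probe each, grouped by complex), with 1 symbol per pair and a bar at the fitted mean. Most bars lie between −0.30 and 0.05, 41 of 46 of them below 0, and pair 1 lies above 0 in all but 13 genes.

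The 4 complexes had similar fitted medians. The median log2 ratio was −0.17 for complex II (4 of 4 genes below 0), −0.14 for complex III (9 of 9), −0.09 for complex IV (13 of 15) and −0.09 for complex V (14 of 17). Pair medians were −0.12, 0.02, −0.30 and −0.17 for complex II in pairs 1 to 4. They were 0.18, −0.19, −0.18 and −0.30 for complex III, 0.08, −0.06, −0.28 and −0.09 for complex IV, and 0.20, −0.13, −0.18 and −0.25 for complex V. In these medians, which hold no dye correction, complex II lay below 0 in pair 1 and above 0 in pair 2, while the other 3 did the reverse. With the dye effect taken out, Sdha, Sdhb, Sdhc and Sdhd gave −0.27, 0.03, 0.06 and 0.02 in pair 1. In pair 2 they then gave −0.09, −0.15, 0.11 and −0.06. Before this correction only Sdhc (−0.09 in pair 1, 0.27 in pair 2) and Sdhd (−0.14 and 0.10) showed the contrast of the complex II medians. After it none of these genes did. When pair 3 was left out, complexes II, III, IV and V stood at −0.09, −0.07, 0.02 and 0.02, so that the direction of IV and V turned. In that fit pair 1 counted as much as pairs 2 and 4 together. The differences between complexes were smaller than those between pairs of the same complex and were not tested.

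**Figure D2:**
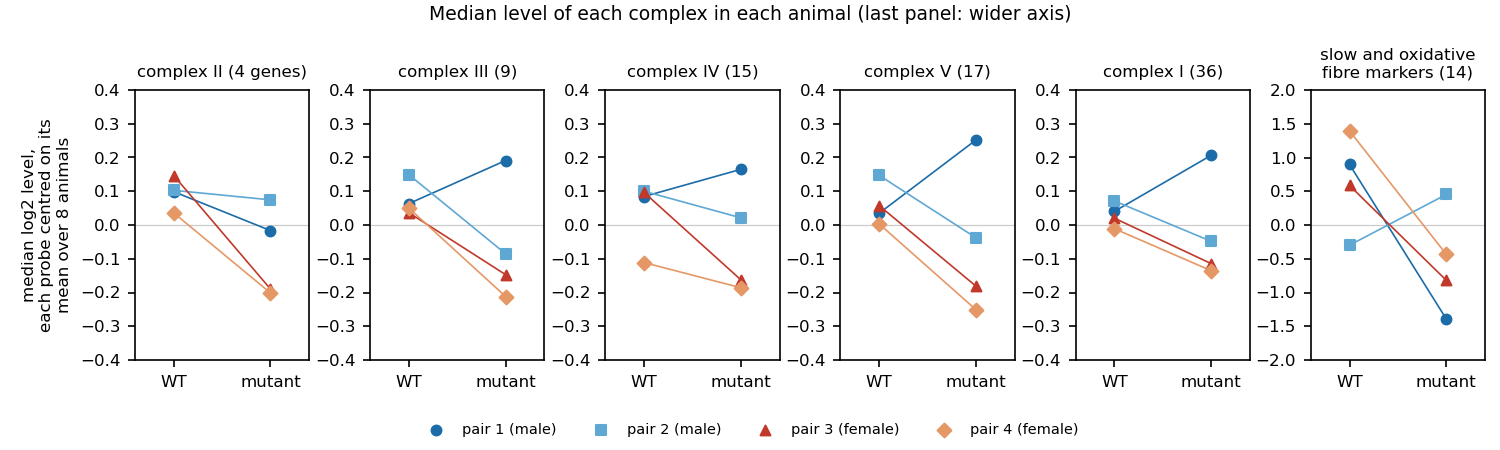
Median log2 level of each complex in each animal (vertical axis, each probe centred on its mean over 8 animals), wild type at the left and mutant at the right of each panel, lines joining the animals of 1 array. Mutants 3 and 4 are the lowest points in the panels of complexes II to V, and mutant 1 is the highest in those of complexes III, IV and V. The last panel, on a wider axis, shows markers of slow and oxidative fibres, whose pairs 1 and 2 run opposite to those of complexes III to V.

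Complex II showed its clearest separation in Sdha, the flavoprotein that oxidises succinate. Its log2 intensity was 14.07, 14.06, 14.04 and 14.02 among the wild types and 13.76, 14.01, 13.89 and 13.78 among the mutants. The 4 wild type animals were close together (SD 0.02), and all 4 mutants lay below them with no overlap. The fitted log2 ratio was −0.19 (SE 0.10), with a 95% interval of −0.42 to 0.05 (unadjusted limma p 0.102, adjusted p 1.00). Groups without overlap and with mutants lower were found for 2 of the 46 genes (4.35%) and for 0.71% of all tested probes. Sdhb, the iron-sulphur subunit, had log2 intensity 15.73, 15.95, 16.06 and 16.16 among the wild types and 15.97, 15.60, 15.74 and 15.60 among the mutants. Mutant 1 was above its wild type partner and the other 3 mutants below theirs, and the groups overlapped (−0.25, SE 0.12, limma adjusted p 1.00). A further Sdhb probe gave −0.14. Among the membrane anchors, Sdhd had log2 intensity 14.93, 14.82, 15.04 and 14.84 among the wild types and 14.79, 14.92, 14.56 and 14.75 among the mutants. Its pair ratios of −0.14, 0.10, −0.48 and −0.09 had both signs, and the fitted ratio was −0.15 (SE 0.11). Sdhc, the other anchor, was the member of complex II nearest 0, at −0.04 (SE 0.10), with a further probe at −0.03. Sdhc had a log2 intensity of 13.85, 13.90, 13.77 and 13.56 among the wild types and 13.76, 14.17, 13.48 and 13.52 among the mutants, mutant 2 being the highest animal of all.

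In complex III, Uqcrc2, a core subunit that faces the matrix, was the other gene without overlap. Its log2 intensity was 14.80, 14.97, 14.89 and 14.90 among the wild types and 14.78, 14.78, 14.62 and 14.60 among the mutants. The highest mutants lay just below the lowest wild type animal, and pair 1 barely differed (−0.02, −0.19, −0.26 and −0.29). The fitted ratio was −0.19 (SE 0.10), with a 95% interval of −0.43 to 0.05. Its partner core subunit Uqcrc1 was lower in 4 of 4 pairs (−0.19, −0.05, −0.23 and −0.16), with log2 intensity 14.26, 13.98, 14.09 and 14.00 among the wild types and 14.07, 13.93, 13.85 and 13.84 among the mutants. There the groups overlapped, since mutant 1 was above wild type animals 2 and 4 (−0.16, SE 0.09).

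The ratios of Uqcrq, a small subunit also called ubiquinone-binding protein, alternated with the dyes. Uqcrq had a log2 intensity of 16.38, 16.32, 16.15 and 16.31 among the wild types and 16.55, 15.96, 16.15 and 15.78 among the mutants. The pair ratios were 0.18, −0.36, 0.00 and −0.54, the pairs with the mutant in Cy5 being the higher ones, and its probe-specific dye effect (Cy5 minus Cy3) was 0.27. With the dye effect taken out the 4 pairs gave −0.09, −0.09, −0.27 and −0.27, and the fitted ratio was −0.18 (SE 0.10). Uqcrh, the hinge protein that contacts cytochrome c1, alternated in the same way (0.42, −0.45, 0.09 and −0.50, dye effect 0.37, fitted ratio −0.11, SE 0.10). Over all 46 probes the size of the dye effect had a median of 0.10 and a maximum of 0.48. The catalytic subunits Uqcrfs1 (the Rieske iron-sulphur protein, −0.17, SE 0.12) and Cyc1 (cytochrome c1, −0.09, SE 0.14) were higher in mutant 1 and lower in the other 3 mutants than in their partners. Uqcrb, which binds next to cytochrome b, was the member nearest 0, at −0.05 (SE 0.11) with further probes at −0.07 and −0.02. Uqcrb had a log2 intensity of 15.51, 15.73, 15.80 and 15.84 among the wild types and 15.82, 15.60, 15.66 and 15.61 among the mutants, with wild type animal 1 the lowest. The small subunits Uqcr10 and Uqcr11 gave −0.14 (SE 0.10) and −0.08 (SE 0.10). Further Uqcr10 probes gave −0.22, lower in 4 of 4 pairs, and −0.14.

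Cycs, the cytochrome c that carries electrons from complex III to complex IV, varied most between pairs. Cycs had a log2 intensity of 15.16, 15.60, 15.84 and 15.33 among the wild types and 15.84, 15.52, 15.26 and 15.17 among the mutants. Pair 1 was higher in the mutant by 0.68 and pair 3 lower, at −0.57, so that the fitted mean of −0.03 (SE 0.20) came from opposite values, with a 95% interval of −0.53 to 0.47. A further probe repeated the order of the pairs, at 0.32, −0.10, −0.42 and −0.22.

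In complex IV most fitted ratios lay close to 0. Cox4i1, the subunit to which ATP binds as an inhibitor, had pair ratios of 0.07, 0.04, −0.39 and −0.09 and a fitted ratio of −0.09 (SE 0.11). Cox5a and Cox5b, which lie on the matrix side, were lower in 4 of 4 pairs, by small amounts. For Cox5a the log2 intensity was 16.70, 16.71, 16.74 and 16.57 among the wild types and 16.63, 16.63, 16.49 and 16.48 among the mutants (−0.12, SE 0.09). For Cox5b it was 15.42, 15.36, 15.51 and 15.16 among the wild types and 15.41, 15.33, 15.15 and 15.13 among the mutants (−0.11, SE 0.10). Both had overlapping groups, and in both pair 3 was the lowest (−0.07, −0.08, −0.25 and −0.09 for Cox5a, −0.01, −0.03, −0.36 and −0.03 for Cox5b).

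Cox7a2l, which joins complexes III and IV into supercomplexes, had the smallest p of complex IV and a wide spread. Its log2 intensity was 15.29, 14.82, 14.64 and 14.50 among the wild types and 14.88, 14.79, 14.35 and 14.46 among the mutants. All 4 mutants lay below their partners, yet the animals of pair 1 were each the highest of their genotype, and the groups overlapped. The fitted ratio was −0.19 (SE 0.09, unadjusted limma p 0.0782, adjusted p 1.00), and further probes gave −0.12 and −0.14. Its dye-corrected pair ratios were close to each other, at −0.25, −0.19, −0.13 and −0.20. At the other end Cox6b1, at 0.02 (SE 0.10), and Cox6c, at 0.00 (SE 0.12), were the 2 genes of complex IV above 0. Cox6c was below 0 with median centring (−0.09) and in the authors' deposited table (−0.04). Cox6c had a log2 intensity of 16.12, 16.31, 16.28 and 16.20 among the wild types and 16.56, 16.16, 16.14 and 16.06 among the mutants, mutant 1 standing above all other animals. Cox7b and Cox7c gave −0.14 (SE 0.12) and −0.03 (SE 0.12), and Ndufa4, once assigned to complex I and now to complex IV, gave −0.03 (SE 0.14).

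Complex IV has 3 subunits with a form typical of heart and skeletal muscle and another, the liver form, made in most tissues. The muscle forms are Cox6a2, Cox7a1 and Cox8b, and the liver forms Cox6a1, Cox7a2 and Cox8a. The log2 intensity of Cox6a2 was 17.27, 17.52, 17.40 and 17.29 among the wild types and 16.94, 17.36, 17.39 and 17.20 among the mutants, lower in 4 of 4 pairs but with overlapping groups (−0.15, SE 0.10). That of Cox6a1 was 13.23, 13.33, 13.31 and 13.34 among the wild types and 13.18, 12.93, 13.03 and 13.37 among the mutants, with mutants 1, 2 and 3 below every wild type animal and mutant 4 above them all (−0.17, SE 0.11). Cox6a1 lies on chromosome 5 within 10 Mb of Pus1 in assembly GRCm38.p6, so an effect of the mutation cannot be told apart from that of a linked allele.

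Cox7a1 and Cox7a2 ranked the animals in a similar order. The log2 intensity of Cox7a1 was 16.13, 16.07, 16.03 and 15.74 among the wild types and 16.35, 16.01, 15.65 and 15.62 among the mutants (−0.08, SE 0.12). That of Cox7a2 was 14.47, 14.67, 14.47 and 14.19 among the wild types and 14.94, 14.61, 14.04 and 14.00 among the mutants (−0.05, SE 0.16). In both genes mutant 1 was the highest of the 8 animals and mutant 4 the lowest. This was not particular to the Cox7a forms, since Cox6c and Uqcr10, among others, had the same highest and lowest animals. Among the mutants alone, mutant 1 was the highest in 39 of 46 genes and mutant 4 the lowest in 26. Their fitted 95% intervals were −0.39 to 0.22 and −0.44 to 0.34.

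For Cox8b the log2 intensity was 16.86, 17.26, 16.78 and 16.69 among the wild types and 17.28, 16.82, 16.81 and 16.47 among the mutants, with pair 1 higher and pair 2 lower in the mutant (−0.05, SE 0.11, dye effect 0.28). Cox8a varied far less, at 13.54, 13.53, 13.33 and 13.38 among the wild types and 13.43, 13.33, 13.38 and 13.28 among the mutants (−0.09, SE 0.09), and a further probe gave −0.04. The average differences between muscle and liver forms did not share 1 direction among the 3 subunits. These differences and their tests hold no dye correction. The dye effect was 0.28 for Cox8b and 0.06 for Cox8a, so that the spread for Cox8 includes a difference in dye effect. The muscle minus liver difference in log2 ratio averaged 0.03 ± 0.27 (SD, n = 4 pairs) for Cox6a, ranging from −0.28 to 0.28. It averaged −0.03 ± 0.15 for Cox7a, ranging from −0.25 to 0.06, and 0.04 ± 0.34 for Cox8, ranging from −0.24 to 0.54. The 3 comparisons gave p = 0.875, 1 and 1 in two-sided exact sign-flip permutation tests (each 1 after Benjamini-Hochberg adjustment over the 3), where 4 pairs allow no p under 0.125, so that no shift could have been called.

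**Figure D3:**
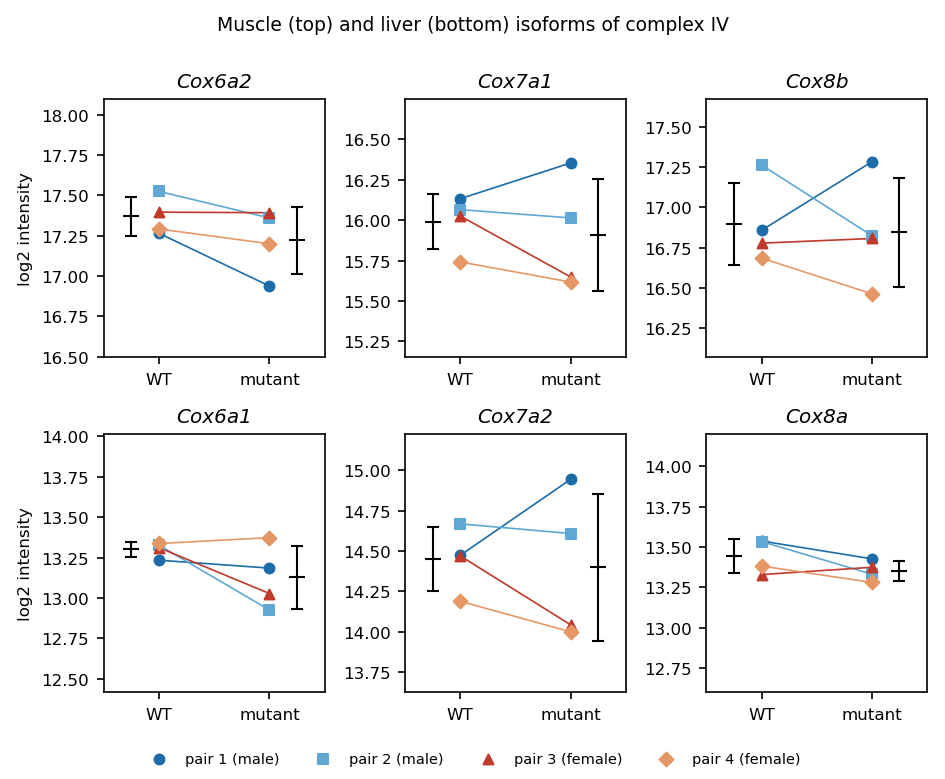
Log2 intensity (vertical axis, 1.6 units high in each panel) of the muscle forms (upper row) and liver forms (lower row) of 3 complex IV subunits, with lines joining the animals of 1 array and bars at the mean ± SD of 4 animals per genotype. Cox7a1 and Cox7a2 show the same order of pairs in mutants, whereas Cox8b spreads widely and Cox8a does not.

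Sequences around the start of these genes are shown because the muscle and liver forms compared above differ in the tissues that make them. RefSeq promoter windows of GRCm38.p6 (300 bases around the start) were at hand for 37 of the 46 genes (40 windows) and for all of these isoforms but Cox6a2. Capitals mark matches, on both strands, to the motifs of NRF1 (TGCGCA), GABPA (NRF-2, CCGGAAG) and the muscle E-box (CAGCTG), 5′ to 3′ along the gene.
Cox7a1 (chr7:30183921-30184220, plus strand): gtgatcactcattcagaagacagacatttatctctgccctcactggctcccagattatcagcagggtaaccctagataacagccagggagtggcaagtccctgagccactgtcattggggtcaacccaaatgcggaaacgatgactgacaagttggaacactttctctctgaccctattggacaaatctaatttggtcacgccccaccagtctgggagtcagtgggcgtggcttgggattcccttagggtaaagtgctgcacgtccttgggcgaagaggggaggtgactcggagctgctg
Cox7a2 (chr9:79759804-79760103, minus strand): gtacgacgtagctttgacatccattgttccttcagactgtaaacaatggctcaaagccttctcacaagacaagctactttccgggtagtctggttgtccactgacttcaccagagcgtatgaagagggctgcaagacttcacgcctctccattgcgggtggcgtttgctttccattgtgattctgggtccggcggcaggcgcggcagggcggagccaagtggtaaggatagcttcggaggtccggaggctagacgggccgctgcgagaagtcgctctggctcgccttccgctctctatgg
Cox8b (chr7:140900397-140900696, minus strand): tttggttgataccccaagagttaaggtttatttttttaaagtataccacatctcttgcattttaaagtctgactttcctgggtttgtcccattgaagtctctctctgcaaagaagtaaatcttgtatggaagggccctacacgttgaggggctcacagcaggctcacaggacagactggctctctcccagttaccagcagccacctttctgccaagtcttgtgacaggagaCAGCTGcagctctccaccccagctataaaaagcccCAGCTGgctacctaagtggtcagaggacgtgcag
Cox8a (chr19:7217567-7217866, minus strand): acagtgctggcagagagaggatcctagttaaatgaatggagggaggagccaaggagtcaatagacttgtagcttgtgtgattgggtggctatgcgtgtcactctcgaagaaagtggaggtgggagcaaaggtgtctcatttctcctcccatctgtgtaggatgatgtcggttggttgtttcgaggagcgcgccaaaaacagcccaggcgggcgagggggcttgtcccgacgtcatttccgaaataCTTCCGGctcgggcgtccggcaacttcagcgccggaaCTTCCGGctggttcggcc
Cox6a1 (chr5:115348909-115349208, minus strand): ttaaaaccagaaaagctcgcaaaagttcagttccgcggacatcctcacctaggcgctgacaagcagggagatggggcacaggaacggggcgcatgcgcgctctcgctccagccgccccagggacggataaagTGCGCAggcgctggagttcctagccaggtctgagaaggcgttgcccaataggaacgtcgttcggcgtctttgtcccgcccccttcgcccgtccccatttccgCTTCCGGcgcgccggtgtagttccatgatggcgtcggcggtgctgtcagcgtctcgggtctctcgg
The window of Cox8b held 2 muscle E-box matches and 2 CpG dinucleotides, and that of Cox8a held 2 GABPA matches and 19 CpG. The window of Cox6a1 held 1 NRF1 match, 1 GABPA match and 32 CpG. Those of Cox7a1 (7 CpG) and Cox7a2 (20 CpG) held none of these matches. Over the members, NRF1 matches were found in 9 of 40 windows (22.5%) against 7.76% of all 32851 windows of the table, and GABPA matches in 13 (32.5%) against 8.86%. The motif of estrogen-related receptors (AAGGTCA) was found in 6 windows (15%) against 4.72%, and the muscle E-box in 3 (7.5%) against 16.3%. Member windows had a median of 19 CpG against 7 over all windows, and the motifs of NRF1 and GABPA hold CpG themselves. Overlaps between motifs were not set aside. These matches describe letters in the windows and were not compared with the ratios.

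The ATP synthase genes, 17 of the 46, held both members with an unadjusted p under 0.05. Atp5a1, the alpha subunit of the catalytic head, had log2 intensity 16.53, 16.27, 16.20 and 16.11 among the wild types and 16.15, 16.02, 15.87 and 15.84 among the mutants. Each mutant lay below its partner by a similar amount (−0.38, −0.24, −0.33 and −0.27), although wild type animal 4 was lower than mutant 1 and the groups overlapped. The fitted log2 ratio was −0.30 (SE 0.09), a fold of 0.810 with a 95% log2 interval of −0.52 to −0.09 (unadjusted limma p 0.0145, adjusted p 1.00). It was the lowest fitted ratio of the 46 genes. Atp5g3, 1 of 3 genes for the c ring subunit, had log2 intensity 15.70, 16.12, 15.95 and 16.26 among the wild types and 15.87, 15.71, 15.75 and 15.56 among the mutants. Mutant 1 was above its partner and mutants 2 to 4 below theirs. The dye effect of this probe was 0.27, and with it taken out the 4 pairs gave −0.10, −0.14, −0.47 and −0.43. The fitted ratio was −0.29 (SE 0.11, unadjusted limma p 0.0425, adjusted p 1.00).

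The beta subunit gene Atp5b, whose product carries the catalytic sites, had the strongest dye effect of the 46 probes. Its log2 intensity was 16.66, 17.28, 16.78 and 17.23 among the wild types and 17.00, 16.53, 16.97 and 16.59 among the mutants. The animals labelled with Cy5 were the higher ones of each array, whatever their genotype, so that the pair ratios alternated (0.34, −0.75, 0.18 and −0.64). With the dye effect of 0.48 taken out, the 4 pairs gave −0.14, −0.27, −0.29 and −0.16 and the fitted ratio was −0.22 (SE 0.09, unadjusted limma p 0.0595, adjusted p 1.00). Atp5g1 alternated likewise (0.28, −0.41, 0.25 and −0.53, dye effect 0.37) and gave −0.10 (SE 0.09), and Atp5g2 gave −0.06 (SE 0.09). Another Atp5g2 probe, less bright, gave −0.13 (SE 0.09), lower in 4 of 4 pairs and with no overlap between the groups. Atp5g1, Atp5g2 and Atp5g3 encode the same mature protein, and whether their probes share targets was not tested.

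**Figure D4:**
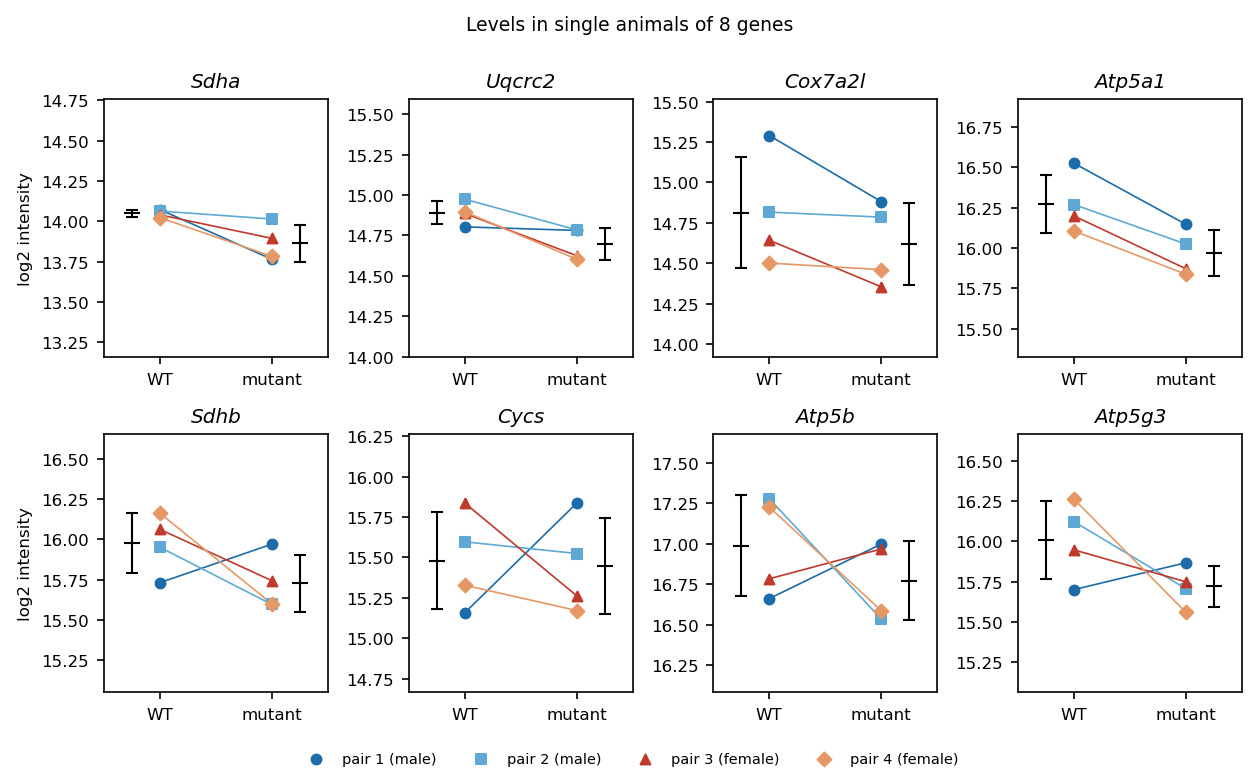
Log2 intensity (vertical axis, 1.6 units high in each panel) of 8 genes in each animal, lines joining the animals of 1 array and bars at the mean ± SD of 4 animals per genotype. Sdha and Uqcrc2 have no overlap between genotypes, the 4 lines of Atp5a1 run in parallel, and those of Atp5b cross with the dye orientation.

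Other subunits of the head and stalks lay closer to 0. The rotor subunits Atp5c1 (gamma), Atp5d (delta) and Atp5e (epsilon) gave −0.12 (SE 0.12), −0.03 (SE 0.09) and 0.04 (SE 0.11). In the peripheral stalk Atp5h (subunit d) was lower in 4 of 4 pairs, with log2 intensity 15.89, 15.85, 15.84 and 15.83 among the wild types and 15.85, 15.72, 15.57 and 15.55 among the mutants. Its wild type animals were close together (SD 0.03), while mutant 1 lay among them, and the fitted ratio was −0.18 (SE 0.10) with a further probe at −0.17. Atp5f1 (subunit b), Atp5j (F6) and Atp5o (OSCP) gave −0.07 (SE 0.12), −0.16 (SE 0.10) and −0.07 (SE 0.11). Among the membrane subunits Atp5l (g) gave −0.11 (SE 0.15), with 4 further probes between −0.12 and −0.08, and Atp5k (e) gave −0.08 (SE 0.14). Atp5k lies, like Cox6a1, on chromosome 5 within 10 Mb of Pus1, and without these genes 39 of 44 members lay below 0 (median −0.10). Atp5j2 (f), also on chromosome 5 but more than 20 Mb away, was the highest member at 0.05 (SE 0.12), and Usmg5, a small subunit also called DAPIT, was the member of complex V nearest 0 (0.01, SE 0.17). With median centring, with the scanner's processed signals and in the authors' deposited table Usmg5 was below 0 instead (−0.08, −0.01 and −0.05). Usmg5 had a log2 intensity of 15.47, 15.75, 15.63 and 15.42 among the wild types and 15.98, 15.84, 15.17 and 15.32 among the mutants, both mutant males being above all other animals and both mutant females below them. Atpif1, the inhibitor that stops ATP synthase from running backwards, gave −0.09 (SE 0.11). Where a gene had several tested probes (17 genes), the fitted genotype ratios of its probes had 1 sign in 17 of 17. The widest gap in that ratio between probes of a gene was 0.12.

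The design also allows the genotype effect to be compared between the sexes, with 2 pairs in each. The effect was lower in females than in males for 40 of 46 genes (87.0%), with a median female minus male difference of −0.23 in log2 ratio, against 45.9% of all probes. None of the 46 passed the interaction test (0 of 46, smallest unadjusted limma p 0.0641, adjusted p 1.00), which called 0% of all probes at an adjusted p of 0.05 and 2.19% at an unadjusted p under 0.05. The lowest differences were those of Cycs (−0.67, SE 0.33), Usmg5 (−0.58, SE 0.27) and Cox7a2 (−0.51, SE 0.27). Cox6a2 (0.20, SE 0.23) and Cox8a (0.13, SE 0.22) were on the other side, and Atp5a1 lay near 0 (0.01, SE 0.22). The male pairs themselves differed in sign (medians 0.15 and −0.11), whereas both female pairs lay below 0 (−0.26 and −0.17). Both mutant females lay below both mutant males in 27 of 46 genes (58.7%, against 24% of all probes), and both wild type females below both wild type males in 15 (32.6%, against 26.4%).

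Over both genotypes the members lay lower in females. Fitted on separate channels, 38 of 46 genes (82.6%) were below 0 in the female minus male level, with a median of −0.13 and a range from −0.50 to 0.09, against 55.3% of all probes and a median of −0.03. An unadjusted limma p under 0.05 was reached by 9 of 46, all with females lower (19.6%, against 11.7% of all probes with females lower and 11.2% with females higher). None of them passed the adjusted threshold (smallest limma adjusted p 0.0891), which 1.38% of all probes did. The lowest were Cox7a2 −0.50 (SE 0.17), Atpif1 −0.47 (SE 0.12) and Cox7a2l −0.45 (SE 0.12), followed by Atp5k −0.39 (SE 0.16), Ndufa4 −0.39 (SE 0.15) and Cox7a1 −0.38 (SE 0.15). Further probes did not always repeat such values. A further Atp5k probe gave −0.08 (SE 0.14), and Sdhc gave −0.34 (SE 0.12) but 0.02 (SE 0.10) with its further probe. Those of Cox7a2l gave −0.21 and −0.23, and those of Uqcr10 (−0.31, SE 0.11) gave −0.22 and −0.18. For Atpif1 the log2 intensity was 12.71, 13.09, 12.54 and 12.52 among the wild types and 13.07, 12.75, 12.41 and 12.26 among the mutants, with mutant 2 and wild type animal 1 the lowest males and above all 4 females. Among the isoforms Cox7a1 and Cox7a2 both gave values below 0 at an unadjusted p under 0.05, whereas Cox6a2 gave 0.05 (SE 0.14) and Cox6a1 gave 0.09 (SE 0.13). Of the remaining isoforms Cox8b gave −0.37 (SE 0.13), with an unadjusted limma p of 0.0195, and Cox8a gave −0.12 (SE 0.10), with 0.264. Whether the forms of a subunit differed in this was not tested. Each sex was on 2 arrays of its own, so sex and array cannot be told apart in these levels.

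**Figure D5:**
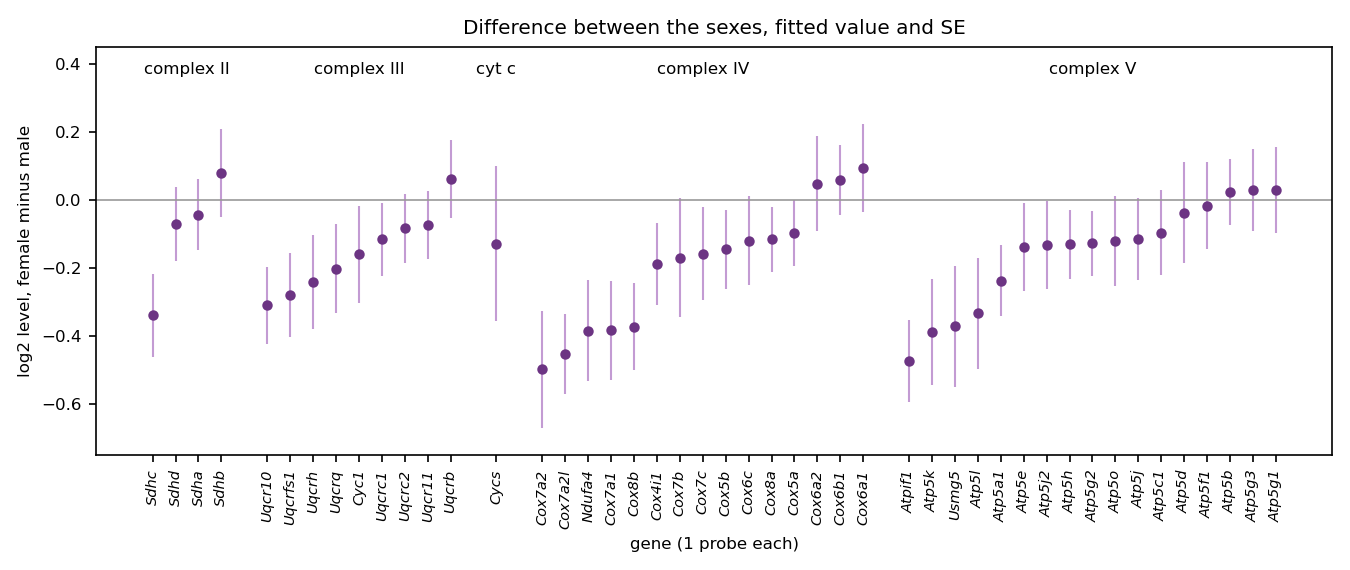
Fitted female minus male difference in log2 level (vertical axis, point and SE) of the 46 genes (horizontal axis, 1 probe each, grouped by complex). Of the points 38 lie below 0, the lowest being Cox7a2 at −0.50, and Cox6a1 is the highest at 0.09.

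Other genes of the chain gave the following values. Of 36 subunits of complex I, 28 lay below 0 in mutants (median −0.07), 0 at an unadjusted p under 0.05, with pair medians of 0.09, −0.09, −0.11 and −0.16. Assembly factors of complexes II to V did not lie lower as a list (17 of 33 tested genes below 0, of 37 listed, median −0.01). At an unadjusted limma p under 0.05, 1 was lower and 2 were higher, against 1.86% and 1.49% of all probes. These were Coa5 (−0.28, SE 0.09), an assembly factor of complex IV, Sco1 (0.28, SE 0.10), a copper chaperone of complex IV, and Cox18 (0.74, SE 0.10, adjusted p 0.596), which helps insert a core subunit of complex IV and, like Pus1, lies on chromosome 5. Of 5 paralogues of subunits typical of other tissues, 2 were tested, with 0 below 0 (median 0.06), and Cox4i2, the lung form of subunit 4, gave 0.00 (SE 0.10). Of the 6 listed genes of mitochondrial DNA for these complexes 0 had a tested probe, and the subunits they encode were not analysed here.

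Fibre and cell markers differed between the same animals, often by more than the respiratory genes. All 14 markers of slow and oxidative fibres lay below 0 (median −1.09), with pair medians of −2.29, 0.75, −1.50 and −1.66, and centred median levels from −0.30 to 1.39 in wild types and from −1.39 to 0.45 in mutants. They were lower in pair 1, where most members were higher, and higher in pair 2, where most were lower. Among them Ldhb (−1.60, SE 0.29), Mb, encoding myoglobin (−0.98, SE 0.20) and Myl3 (−1.68, SE 0.41) had the smallest p. Of 12 fast fibre markers 9 lay above 0 (median 0.06), with Myh1 at −1.29 (SE 0.25). Erythroid markers (6 tested, 6 above 0) had pair medians of 0.82, −0.83, 1.00 and 1.52. Fibroblast markers had a median of 0.32 (8 of 8 above 0, Col1a1 at 0.78, SE 0.22, Col3a1 at 0.72, SE 0.26, and Col1a2 at 0.56, SE 0.20), with pair medians of 1.41, −0.44, 0.15 and 0.54. Macrophage (7 genes, median 0.24) and adipocyte markers (6 genes, 0.28, Fabp4 at 0.26, SE 0.09) were likewise highest in pair 1, at 0.89 and 1.65. Medians were 0.10 for Schwann cell markers (6 genes, Pmp22 at 0.42, SE 0.16), 0.00 for endothelial (9 genes), 0.03 for satellite cell (3 genes) and −0.08 for smooth muscle markers (4 genes), and 0.16 for the 1 lymphocyte marker tested. The part of these markers in the values of the respiratory genes was not tested.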

How the data were processed

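Gene expression was measured in 8 samples on 4 arrays of 2 colours, cRNA being made from 200 ng of total RNA per animal, per the labels' protocols. The deposited scanner files hold median spot and background intensity on a linear scale, per the file headers from Agilent Feature Extraction 10.7.3.1 (version also in the submitters' processing notes), and processed intensity values that were background-subtracted, detrended and dye-normalized, per the file headers. They also hold other values, deposited flags of 0 or 1 for dim, saturated and outlier spots. The deposited series table holds log2 values that, as judged from the values, are centred per probe; its normalization is not stated in the labels, and it served as an alternative. It has 0 columns of other samples.

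Median signals were corrected with normexp (offset 50) and normalized by loess within arrays, with control and outlier spots (left out afterwards) at weight 0, in limma 3.58.1 (R 4.3.3). Of 62976 spots 3671 were controls. Spots of a probe were averaged, and 55591 probes had values on all 4 arrays. The filter kept 23098 probes that at least 4 of 8 samples measured well above background. Accessions gave 1 symbol to 27656 probes (20972 symbols) through the RefSeq gene annotation of GRCm38.p6. Since mm9 is the build in the file headers, the annotation served for names and neighbours only. The symbols Atp5f1 and Usmg5 were matched as synonyms.

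Ratios of mutant over wild type were fitted by limma (lmFit, eBayes) with a dye coefficient for each probe, and p-values were adjusted by Benjamini-Hochberg over all 23098 probes (threshold 0.05). SE and 95% intervals come from that fit. Pair ratios hold no dye correction unless stated. The sex interaction was a term in the same fit, and the sex difference in level was fitted with lmscFit after Aquantile normalization (intraspot correlation 0.187). The brightest tested probe stood for a gene. The array is the block, because animals with the same number were hybridised together, which pairs them by design. Labels name individual animals, so p-values rest on the spread between animals; the number of arrays limits precision. Counts and medians of lists carry no test.

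Genes given with values per animal or per pair were the isoforms of Cox6a, Cox7a and Cox8, the 3 smallest p per complex, those with 1 sign in 4 pairs and the one nearest 0 in each complex. Other examples, among them Atpif1, Uqcrh, Cox4i1 and Atp5g1, were chosen after their values were seen. The NRF1 motif replaced a longer one whose matches had been seen. From the other lists only genes at an unadjusted p under 0.05 (at most 3 per list) were to be named; Cox4i2 was named in addition. Members and lists were chosen with earlier results of these data known. Alternatives covered background correction, normalization, filter, dye term, block, probe choice and each pair left out in turn.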

Additional observations from a re-analysis of the deposited data

Results flagged for a closer look

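Levels of the 46 genes were searched for an animal standing apart from the other 3 of its genotype, and 2 of 92 groups of 4 were found, where chance gives about 1 in 20. Uqcrfs1 had a log2 intensity of 15.32 in wild type animal 2, against 15.16 to 15.18 in the other wild type animals, a gap of 0.834 of the range (just past Dixon's limit). Cox6b1 had 13.20 in mutant 1, against 13.13 in the other 3 mutants, a gap of 0.919 of the range. Both gaps are small on the log2 scale, and neither gene differed between genotypes at an adjusted p of 0.05.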

How the results depend on the processing

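The array block could be dropped, as the dyes separate the channels: with no replicate block 3 probes of the array passed the threshold and 0 members did, so that the block changed no call among the members. The count of all probes, 0 with every pair, rose to 23 when loess was replaced by median centring (21 lower, 2 higher), 5 with no filter on dim probes (4 lower, 1 higher), 2 with no dye term (2 lower) and 13 with separate channels in lmscFit (6 lower, 7 higher). It was 0 to 245 when each pair was left out, 245 without pair 3 (206 lower, 39 higher) and 5 without pair 1. Under each of these, and under the scanner's processed signals, no background correction, offset 10, the authors' deposited table, the 8 of 8 filter and the mean of all probes, 0 members passed. With median centring all 46 members lay below 0 (median −0.19), as did 70.3% of all probes (median −0.06). The count of members below 0 was 25 to 46 when each pair was left out, and their median −0.205 to −0.0137. All values with a pair left out come from fits with the dye term. In these the remaining pair of the same dye orientation counted as much as both pairs of the other orientation. By complex the median was −0.217 to −0.0886 for II, −0.191 to −0.0693 for III, −0.168 to 0.0192 for IV and −0.222 to 0.0185 for V, the highest value in each coming without pair 3. Isoform differences were −0.0561 to 0.130, −0.0633 to 0.0411 and −0.124 to 0.133 for Cox6a, Cox7a and Cox8.

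Of the single genes, Usmg5 turned negative at −0.00754 with processed signals, −0.0838 with median centring and −0.0506 in the authors' deposited table, and Cox6c at −0.0915 with median centring and −0.0412 in that table. Median centring also turned Cox6b1 (−0.0642), Atp5e (−0.052) and Atp5j2 (−0.0451). When each pair was left out, 21 of 46 genes crossed 0, with ranges of −0.253 to 0.0185 for Atp5c1, −0.066 to 0.154 for Atp5e, −0.203 to 0.0728 for Atp5f1, −0.0876 to 0.186 for Atp5j2, −0.222 to 0.0627 for Atp5k, −0.315 to 0.0986 for Atp5l, −0.192 to 0.0552 for Atp5o, −0.21 to 0.0291 for Atpif1, −0.206 to 0.0192 for Cox4i1, −0.0452 to 0.0903 for Cox6b1, −0.138 to 0.146 for Cox6c, −0.233 to 0.0667 for Cox7a1, −0.276 to 0.173 for Cox7a2, −0.138 to 0.0848 for Cox7c, −0.15 to 0.0478 for Cox8b, −0.257 to 0.0864 for Cyc1, −0.345 to 0.282 for Cycs, −0.211 to 0.145 for Ndufa4, −0.114 to 0.037 for Sdhc, −0.159 to 0.0652 for Uqcrb, −0.231 to 0.254 for Usmg5. A further 15 kept their sign and moved by over 1.5 times, with ranges of −0.0536 to −0.00631 for Atp5d, −0.0865 to −0.0382 for Atp5g2, −0.246 to −0.0651 for Atp5j, −0.168 to −0.0774 for Cox5a, −0.196 to −0.023 for Cox5b, −0.284 to −0.0652 for Cox6a1, −0.227 to −0.0656 for Cox6a2, −0.264 to −0.00737 for Cox7b, −0.131 to −0.0532 for Cox8a, −0.388 to −0.11 for Sdhb, −0.239 to −0.0675 for Sdhd, −0.214 to −0.0644 for Uqcr10, −0.14 to −0.0201 for Uqcr11, −0.279 to −0.0693 for Uqcrfs1, −0.191 to −0.0261 for Uqcrh. For Pus1 the log2 ratio ranged from −3.24 (processed signals) to −1.33 (no background correction), at −3.23 in the authors' deposited table, and the adjusted limma p ranged from 0.000146 (median centring) to 0.955 (without pair 4), passing also at 0.00549, 0.0242, 0.0288 and 0.000679 with no dim filter, no dye term, no replicate block and lmscFit, at 0.0159 without pair 1 and at 0.00963 without pair 3. For the sex interaction the count of probes was 22 with median centring and 38 with no dim filter, and for the sex difference in level 567 with no dim filter; members below 0 stayed at 40 to 41 and 38. The cause of these changes was not tested.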
